A study of Homo sapiens with 61 samples.

Results

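Keratin-associated proteins are coded by 94 genes among the 19970 protein-coding genes with a start site in GENCODE 44, and were taken here as every protein-coding gene whose symbol starts with KRTAP. The family was examined in chromatin immunoprecipitation sequencing of H3K4me3 (histone H3 trimethylated at lysine 4) and of XPC, the DNA damage sensor of global-genome nucleotide excision repair. U2OS human osteosarcoma cells were either ASH1L-/- or wild-type (WT) and were either not irradiated or given a UV-C dose of 20 J/m2 and fixed 1 h or 3 h later. H3K4me3 was profiled in 3 libraries per group of genotype and time, 18 in all, and XPC in 3 per group except WT without UV with 4, 19 in all. The ASH1L-/- cells were made with CRISPR/Cas9 and grown from an isolated colony, so every ASH1L-/- library shares whatever else sets that colony apart from the WT cells. ASH1L, a histone methyltransferase, was deleted in internal exons outside its promoter window, which was covered over 2.64 to 2.86 kb in ASH1L-/- libraries and 2.67 to 2.87 kb in WT libraries, so the peaks do not check the deletion. H3K4me3 peaks were called against pooled input chromatin of the same genotype and time, and XPC peaks against the pooled immunoprecipitate of XPC-/- cells.

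Keratin-associated proteins fill the matrix of the hair shaft, where their cysteines cross-link the hair keratin filaments. They are grouped by amino acid content into high-sulfur, ultrahigh-sulfur and high-glycine-tyrosine proteins, and their short genes lie in tandem clusters that are normally transcribed in the differentiating hair cortex and cuticle. H3K4me3 marks nucleosomes at the start sites of active genes, and ASH1L is best known for methylating histone H3 in chromatin of developmental genes. In the osteosarcoma cells studied here most of the family carried little of the mark.

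The genes fell into 5 clusters when neighbours less than 1 Mb apart were joined (coordinates in hg38). The ultrahigh-sulfur KRTAP5 genes formed a group of 6 on the short arm of chromosome 11 (chr11:1582342-1699755) and a group of 5 on its long arm (chr11:71525267-71605353). The chromosome 17 cluster held 34 genes of the high-sulfur and ultrahigh-sulfur classes (chr17:40991430-41317710). On chromosome 21, a proximal cluster of 33 genes held the high-glycine-tyrosine proteins and several high-sulfur ones (chr21:30279309-31040476), and a distal cluster of 16 high-sulfur genes, KRTAP10 and KRTAP12, covered 163 kb (chr21:44536981-44700044). The distal cluster ends 2.01 Mb before the end of the chromosome and is nested inside TSPEAR, a gene whose own start lies outside the span, and all 16 promoter windows of the cluster overlap TSPEAR.

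The family was proposed after KRTAP12-3 had been seen among the promoters with large H3K4me3 increases after UV in WT cells. The sequences of 4 start regions are shown, that of KRTAP12-3 for this reason and those of KRTAP10-5, KRTAP10-8 and KRTAP7-1 because they had the longest mean H3K4me3 coverage of the family: KRTAP12-3 (chr21:44657682-44657981, plus strand), KRTAP10-5 (chr21:44580555-44580854, minus strand) and KRTAP10-8 (chr21:44611829-44612128, plus strand) from the distal cluster, and KRTAP7-1 (chr21:30829710-30830009, minus strand) from the proximal cluster. Each runs 5′ to 3′ in the direction of its gene, from 250 bases before the start to 50 bases after it, and was taken from RefSeq (GRCh38.p14). Capitals mark TATAAA on the gene strand, and KRTAP10-5 has no such match.
KRTAP12-3: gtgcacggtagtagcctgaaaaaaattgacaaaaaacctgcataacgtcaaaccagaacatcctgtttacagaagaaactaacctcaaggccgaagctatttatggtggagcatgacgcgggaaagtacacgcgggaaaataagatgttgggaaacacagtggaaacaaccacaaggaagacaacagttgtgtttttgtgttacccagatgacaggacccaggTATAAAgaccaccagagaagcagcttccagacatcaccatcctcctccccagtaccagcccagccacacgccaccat
KRTAP10-5: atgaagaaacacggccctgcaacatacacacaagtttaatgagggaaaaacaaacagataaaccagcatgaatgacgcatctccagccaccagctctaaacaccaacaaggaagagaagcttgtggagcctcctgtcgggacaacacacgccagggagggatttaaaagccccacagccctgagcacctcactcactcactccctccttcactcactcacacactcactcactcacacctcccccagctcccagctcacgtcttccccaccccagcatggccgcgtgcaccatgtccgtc
KRTAP10-8: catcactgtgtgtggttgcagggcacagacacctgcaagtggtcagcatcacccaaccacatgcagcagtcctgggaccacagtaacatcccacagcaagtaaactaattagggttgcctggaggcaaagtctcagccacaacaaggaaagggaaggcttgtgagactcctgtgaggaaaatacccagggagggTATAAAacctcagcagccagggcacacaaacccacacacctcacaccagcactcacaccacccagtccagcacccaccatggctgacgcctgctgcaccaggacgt
KRTAP7-1: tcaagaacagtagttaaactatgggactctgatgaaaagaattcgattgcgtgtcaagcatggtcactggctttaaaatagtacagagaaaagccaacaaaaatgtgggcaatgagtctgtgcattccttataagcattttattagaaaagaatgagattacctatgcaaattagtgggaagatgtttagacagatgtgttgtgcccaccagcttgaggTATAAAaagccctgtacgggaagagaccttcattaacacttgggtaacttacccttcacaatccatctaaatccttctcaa
RefSeq start regions were matched for 80 of the 94 genes. TATAAA was present on the gene strand in 61 of the 80 (76.2%), against 7.33% of all 35116 start regions of the same length, and on either strand in 80% against 11.5%. It began at position −27 from the start in KRTAP12-3, −56 in KRTAP10-8 and −31 in KRTAP7-1. The share was 73.3% in the distal chromosome 21 cluster (11 of 15), 84.8% in the chromosome 17 cluster (28 of 33) and 70% in the proximal chromosome 21 cluster (21 of 30). The regions were poor in CpG, with a median of 2 CpG per region and 42.7% GC, against 14 CpG and 58.7% GC over all start regions. GC content differed among clusters, with medians of 55.3% in the distal cluster, 42% on chromosome 17 and 38.5% in the proximal cluster. These matches describe letters and not bound sites.

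H3K4me3 was measured for each gene as the length of its promoter window, 2 kb either side of the start site and thus 4 kb long, that lay under called peaks in a library. The deposited lists hold no counts, so this length is the value per library, and a value of 0 means that no peak was called. Of the 94 windows, 43 were never covered, 51 were covered in at least 1 library and 7 in all 18. A window covered in at least 3 libraries was tested, which left 41 members (43.6%), against 73.8% of all promoters. The tested members were 0 of 6 on the chromosome 11 short arm, 4 of 5 on its long arm, 6 of 34 on chromosome 17, 18 of 33 in the proximal and 13 of 16 in the distal chromosome 21 cluster. Every one of the 16 distal windows was covered in some library, against 23 of 33 proximal and 7 of 34 chromosome 17 windows. Among the distal windows, KRTAP10-1, KRTAP10-2 and KRTAP10-6 were covered in irradiated WT libraries alone. KRTAP10-2, KRTAP12-1 and KRTAP10-12 reached the minimum of 3 libraries only with irradiated WT libraries. The family was proposed from that WT response, so these distal counts are not independent of the choice.

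The H3K4me3 libraries held 72984 to 142688 peaks over 70.1 to 132 Mb, and 17 of the 19 XPC lists held exactly 500000 peaks while WT 1 h replicate 3 and ASH1L-/- 3 h replicate 1 held fewer. Of 9 mesenchymal and bone markers 7 were tested, with 19.2 to 21.3 kb covered in all over the 9 windows per library, while COL1A2 and TWIST1 were never covered. Of 10 keratinocyte markers 7 were also tested, with 4.17 to 8.14 kb covered in all per library. KRT17 (1.83 to 3.35 kb) and SFN (1.95 to 2.55 kb) were covered in all 18 libraries, while KRT14, TP63 and DSG3 were at 0 in each. The summed coverage came to at most 0.544 kb over 3 hepatocyte markers, and no blood marker was covered. The part of these cell type markers in the members' values was not tested. Among 17 hair keratin genes, the filament partners of the family, 2 were tested and none was called in either comparison, and 2 of 30 cornified envelope genes (LCE and SPRR) were tested with none called. Of 20 genes of the follicle sheath and shaft, 3 were tested, and CRYM alone passed in irradiated ASH1L-/- cells, higher by 0.205 ± 0.0694 kb (SE; limma adjusted p = 0.0434). Of 10 transcription factors of hair development, 7 were tested, and BARX2 was higher there by 0.285 ± 0.0900 kb (SE; limma adjusted p = 0.0333). In that comparison 24% of all promoters tested were called higher. HOXC13, a regulator of hair keratin genes, was covered over 2.58 to 3.27 kb in all 18 libraries. All 7 tested factors of its list were covered in all 18, while FOXN1, GATA3 and FOXQ1 were at 0 in each.

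The distal chromosome 21 cluster had the largest mean H3K4me3 share of the 5 in each of the 6 groups of genotype and time. Peaks covered 6.59, 5.65 and 10.5% of its bases in unirradiated ASH1L-/- libraries, with 5.58, 12.4 and 8.15% at 1 h and 9.25, 5.06 and 6.71% at 3 h. In WT cells they covered 14.9, 14.5 and 21.5% without UV, 37.4, 31.3 and 36.5% at 1 h and 47.5, 35.9 and 46.5% at 3 h. The ASH1L-/- libraries stayed between 5.06 and 12.4% at all 3 times, below every WT library, and the WT libraries after UV lay above those without. The family was proposed from the WT response. The WT change and the comparisons of irradiated ASH1L-/- with irradiated WT cells are thus given as descriptions with no test. The comparison of ASH1L-/- with WT cells without UV shares its WT libraries with that response, so its tests are not independent of the choice.

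**Figure D1:**
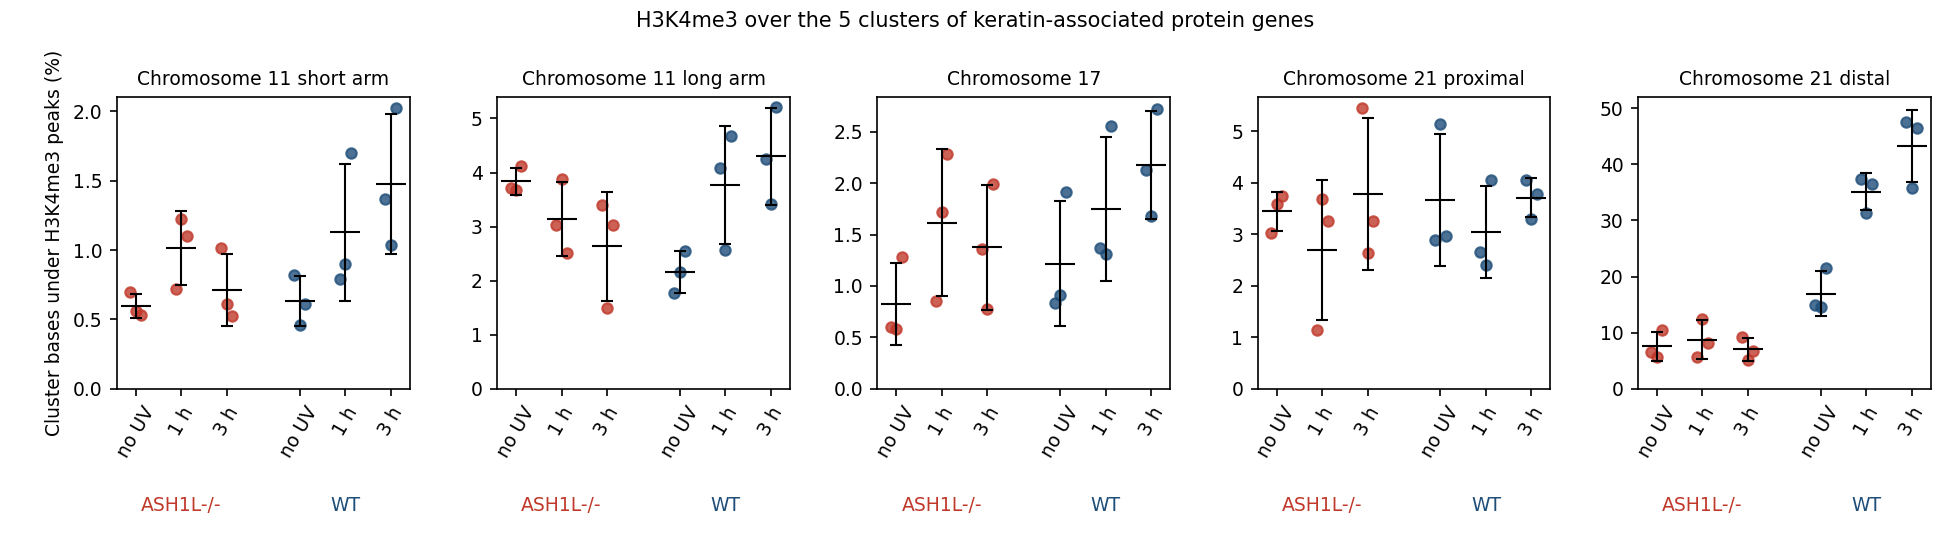
Percent of the bases of each KRTAP cluster under H3K4me3 peaks (y axis, from 0, own scale per panel) in ASH1L-/- and WT libraries without UV and 1 h and 3 h after UV. Points are libraries, bars the mean ± SD (n = 3). In the distal chromosome 21 cluster the ASH1L-/- means were 7.58, 8.71 and 7.0% and the WT means 17, 35.1 and 43.3%.

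Whether UV changed the clusters in ASH1L-/- cells was asked of the ASH1L-/- libraries, which did not enter the WT response that the family was proposed from. The choice was still made with earlier results of these data known. The distal cluster was covered to 7.86% ± 2.73 (SD, n = 6) in irradiated and 7.58% ± 2.57 (SD, n = 3) in unirradiated ASH1L-/- cells, a difference of 0.283 percentage points (exact permutation test, two-sided, p = 0.893, adjusted p = 0.893 over 5 clusters). No other cluster passed, with adjusted p of 0.298 for both chromosome 11 clusters and the chromosome 17 cluster and 0.893 for the proximal one in the exact permutation test. The chromosome 11 long arm cluster had the lowest raw p, 0.0952 by the exact permutation test, with 2.89% ± 0.819 (SD, n = 6) after UV and 3.84% ± 0.251 (SD, n = 3) without. The smallest p this test allows is 0.0119. After adjustment over 5 clusters, a cluster that changed alone could not pass even at that p. The lack of calls is thus no evidence that the clusters were unchanged. Relative to the share of the genome under peaks in the same library, 2.31 to 4.37%, the distal cluster averaged 2.75 times the genome without UV, 2.74 times at 1 h and 2.19 times at 3 h in ASH1L-/- cells, and 6.38, 9.86 and 11.1 times at those times in WT cells.

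**Figure D2:**
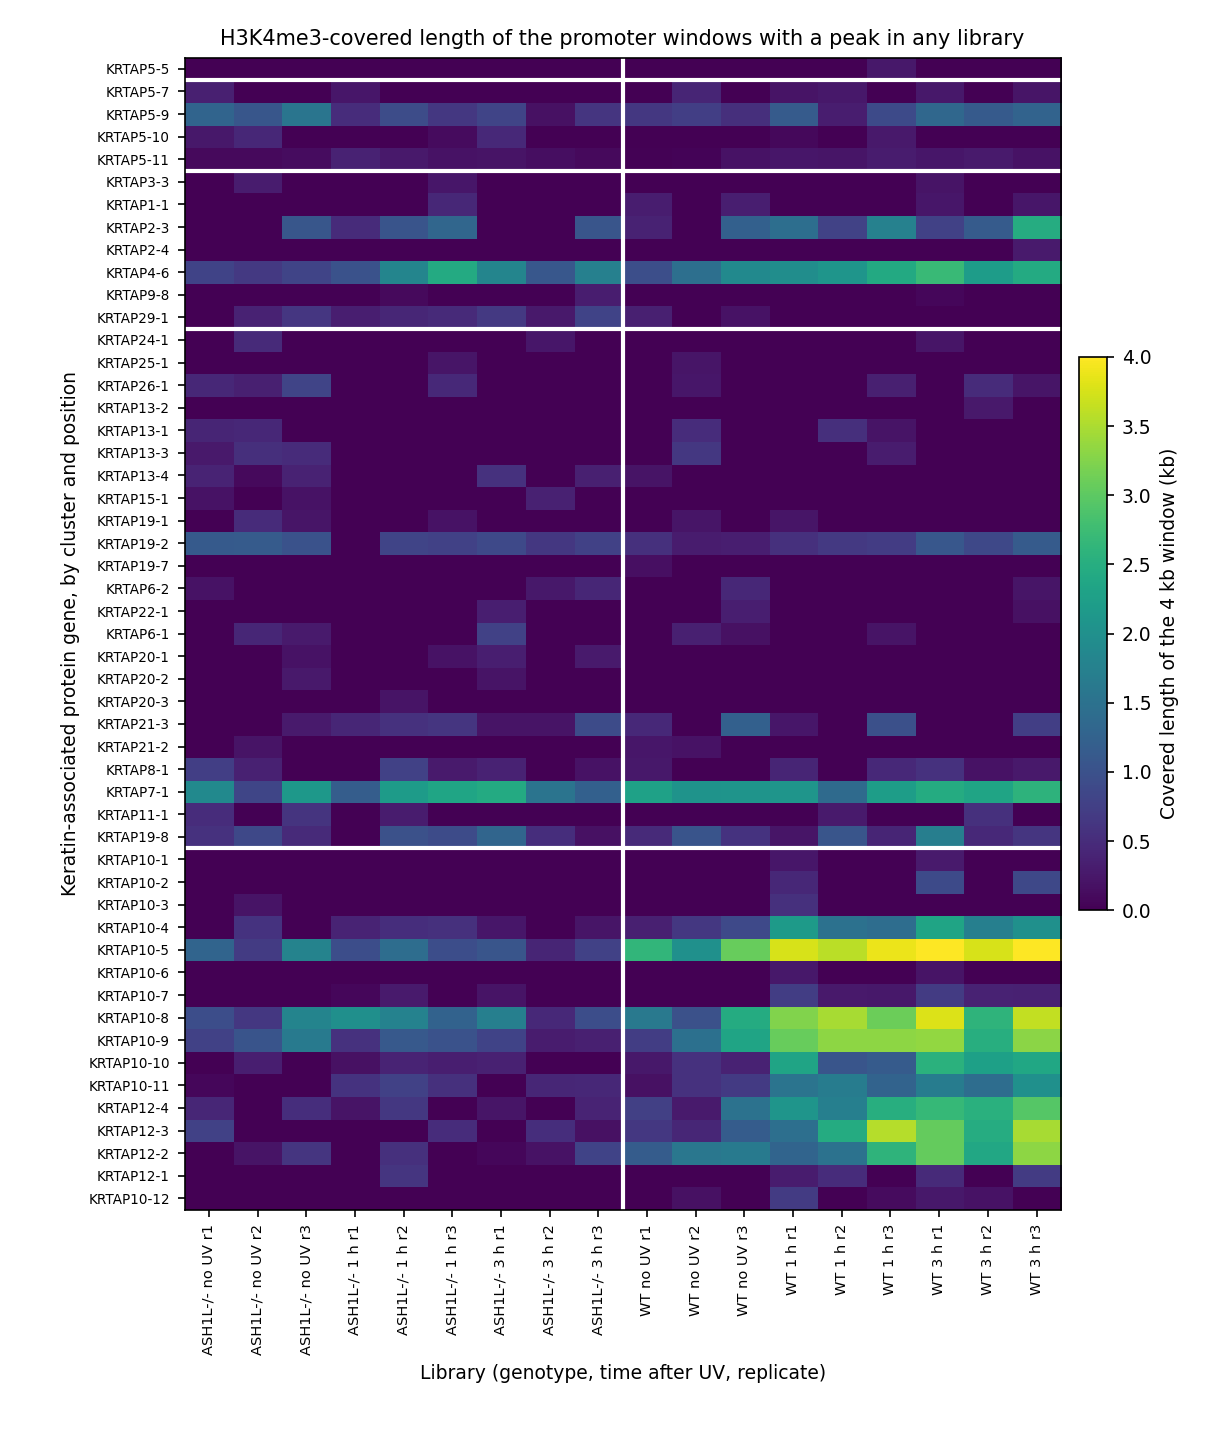
Covered length in kb (colour, 0 to 4 kb) of the 51 promoter windows with a peak in any H3K4me3 library, by cluster and position (rows, white lines between clusters) and by library (columns, ASH1L-/- left of WT). The distal genes fill the lower right block, where KRTAP10-5 reached the full 4 kb in 2 of 3 WT libraries at 3 h, while KRTAP7-1 was covered in all 18 libraries.

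KRTAP12-3, a high-sulfur gene of the distal cluster with its start at 44657932, was covered over 0.772, 0 and 0 kb in ASH1L-/- cells without UV, 0, 0 and 0.501 kb at 1 h and 0, 0.529 and 0.185 kb at 3 h. The WT libraries had 0.642, 0.427 and 1.17 kb without UV, 1.46, 2.47 and 3.55 kb at 1 h and 3.05, 2.48 and 3.48 kb at 3 h. Thus 5 of the 9 ASH1L-/- libraries had no peak in the window, and all 6 irradiated WT libraries lay above the other 12. The change after UV was 2.0 kb in WT cells, a description, and −0.0548 ± 0.348 kb in ASH1L-/- cells (SE; limma adjusted p = 0.930). Without UV, ASH1L-/- cells had 0.487 kb less than WT cells, which did not pass (fitted difference −0.487 ± 0.402 kb, SE; limma adjusted p = 0.563). A peak was called in the window in 3 of 6 irradiated ASH1L-/- libraries, with a highest fold enrichment over input of 2.67, 3.81 and 2.61, and in all 6 irradiated WT libraries, with a median of 4.17 (3.02 to 7.28), where the median over all covered promoters ran from 5.83 to 15.0 per library.

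KRTAP10-5, another high-sulfur gene, had the longest mean coverage of the family, 2.22 kb over the 18 libraries. It was covered over 1.28, 0.701 and 1.79 kb in ASH1L-/- cells without UV, 0.942, 1.42 and 0.949 kb at 1 h and 1.06, 0.412 and 0.780 kb at 3 h. In WT cells the window had 2.63, 2.0 and 3.06 kb without UV, 3.76, 3.58 and 3.88 kb at 1 h and 4, 3.76 and 4 kb at 3 h. The ASH1L-/- libraries lay below every WT library, and the WT window was full or nearly so after UV, which caps any further increase. Without UV it was lower in ASH1L-/- than in WT cells by a fitted difference of −1.31 ± 0.269 kb (SE; limma adjusted p = 0.0132). This call was lost without ASH1L-/- no UV replicate 2 (limma adjusted p = 0.0509) and kept on leaving out any other unirradiated library. The median fold enrichment was 3.08 in irradiated ASH1L-/- cells (2.26 to 3.62) and 5.76 in irradiated WT cells (4.83 to 6.62).

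KRTAP12-2 was the other distal gene called at baseline. It had 0, 0.205 and 0.619 kb in ASH1L-/- cells and 1.17, 1.59 and 1.63 kb in WT cells without UV, a difference of −1.19 ± 0.319 kb (SE; limma adjusted p = 0.0495). The groups did not overlap, but the call was lost on leaving out any 1 of the 6 libraries (limma adjusted p of 0.0698 to 0.154). The third promoter called at baseline was KRTAP19-2, a high-glycine-tyrosine gene of the proximal cluster, which was higher in ASH1L-/- cells. It had 1.14, 1.14 and 1.01 kb in ASH1L-/- cells and 0.558, 0.310 and 0.330 kb in WT cells without UV, a difference of 0.697 ± 0.165 kb (SE; limma adjusted p = 0.0287). It was lost without any 1 of the ASH1L-/- no UV libraries or without WT no UV replicate 2, at limma adjusted p of 0.0632 to 0.0840. The calls were thus 1 member higher and 2 lower of 41 tested, against 2.86% higher and 1.11% lower of all promoters tested. The unirradiated WT libraries in these calls also entered the WT response that the family was proposed from. With coverage scaled to an equal total per library 3 members were higher and 4 lower, against 126 higher and 143 lower of the 14745 promoters. Over all 16 distal genes, tested or not, the median baseline difference was −0.327 kb, with 10 lower, 1 higher and 5 at 0, and the median over all promoters was 0.

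KRTAP10-8 was covered over 0.947, 0.651 and 1.80 kb in ASH1L-/- cells without UV, 1.99, 1.77 and 1.25 kb at 1 h and 1.73, 0.456 and 0.952 kb at 3 h. In WT cells it had 1.62, 0.990 and 2.47 kb without UV, 3.25, 3.48 and 3.11 kb at 1 h and 3.78, 2.6 and 3.63 kb at 3 h. The libraries of the genotypes overlapped without UV, and after UV all WT libraries lay above all ASH1L-/- libraries. KRTAP10-9 had 0.766, 1.04 and 1.65 kb in ASH1L-/- cells without UV, 0.574, 1.11 and 1.01 kb at 1 h and 0.804, 0.306 and 0.349 kb at 3 h. The WT libraries had 0.733, 1.48 and 2.33 kb without UV, 3.06, 3.32 and 3.32 kb at 1 h and 3.35, 2.51 and 3.30 kb at 3 h. Here too the genotypes overlapped without UV and not after it.

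KRTAP12-4, which shares 727 bp of its window with KRTAP12-3, had at most 0.641 kb in any ASH1L-/- library. Its WT libraries had 0.758, 0.292 and 1.51 kb without UV, 2.09, 1.72 and 2.50 kb at 1 h and 2.68, 2.55 and 2.94 kb at 3 h. KRTAP10-4 reached 0.582 kb at most in ASH1L-/- cells and had 0.349, 0.651 and 0.885 kb in WT cells without UV, 2.17, 1.49 and 1.44 kb at 1 h and 2.33, 1.72 and 2.0 kb at 3 h. KRTAP10-10 reached 0.395 kb in ASH1L-/- cells and had 0.255, 0.570 and 0.376 kb in WT cells without UV, 2.34, 1.05 and 1.14 kb at 1 h and 2.55, 2.27 and 2.39 kb at 3 h. In each of these 3 genes every irradiated WT library lay above all other libraries. KRTAP10-1, KRTAP10-2, KRTAP10-3, KRTAP10-6, KRTAP10-7, KRTAP12-1 and KRTAP10-12 stayed low, with a highest value of 0.264 to 0.906 kb in any library.

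Over all 16 distal genes, tested or not, the change in group mean after UV in WT cells was positive in each. Its median was 1.01 kb, against a median of 0.139 kb over all 19970 promoters. In 9 of the 16 all irradiated WT libraries lay above all WT libraries without UV, which held for 16.4% of all promoters. In 9 of the 16 all irradiated WT libraries lay above all irradiated ASH1L-/- libraries, which held for 1.98% of all promoters. Scaling coverage to an equal total per library gave a median of 0.340 kb over the 16 in WT cells, and moved the median change of all promoters tested by −0.818 kb, to −0.615 kb against 0.203 kb unscaled. In ASH1L-/- cells the median change after UV over the 16 distal genes was 0 kb, with 7 positive, 6 negative and 3 at 0, against a median of 0.106 kb over all promoters. The summed coverage of the 16 windows was 4.90 ± 1.88 kb in irradiated (SD, n = 6) and 4.79 ± 1.41 kb in unirradiated ASH1L-/- cells (SD, n = 3), and 24.8 ± 3.50 kb in irradiated (SD, n = 6) and 10.4 ± 3.22 kb in unirradiated WT cells (SD, n = 3).

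Across the family 6 promoters passed for UV in ASH1L-/- cells, 2 higher and 4 lower of 41 tested. Of all promoters tested 24% were higher and 0.258% lower. The 4 lower include KRTAP13-3, which met the filter for testing only through the unirradiated ASH1L-/- libraries. With coverage scaled to an equal total per library 1 member was higher and 4 lower, against 107 higher and 40 lower of the 14745 promoters, whose median change moved by −0.314 kb, to −0.140 kb against 0.174 kb unscaled. KRTAP4-6, an ultrahigh-sulfur gene on chromosome 17 (start 41140544), was higher. It had 1.00, 1.83 and 2.45 kb at 1 h and 1.82, 1.09 and 1.74 kb at 3 h, against 0.806, 0.657 and 0.827 kb without UV, a difference of 0.891 ± 0.263 kb (SE; limma adjusted p = 0.0259). All 6 irradiated libraries lay above the 3 without UV. WT cells had 1.95 to 2.72 kb after UV and 0.968, 1.47 and 1.90 kb without, also without overlap. KRTAP10-11 of the distal cluster was higher by 0.447 ± 0.140 kb (SE; limma adjusted p = 0.0323), with 0.590, 0.777 and 0.562 kb at 1 h and 0.012, 0.427 and 0.438 kb at 3 h, against 0.063, 0 and 0 kb without UV. Its groups overlapped through ASH1L-/- 3 h replicate 1.

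The 4 lower promoters lay on chromosomes 11 and 21. KRTAP5-9, an ultrahigh-sulfur gene on the long arm of chromosome 11 (start 71548420), had 0.501, 0.934 and 0.645 kb at 1 h and 0.823, 0.176 and 0.610 kb at 3 h in ASH1L-/- cells, against 1.29, 1.08 and 1.55 kb without UV. The difference was −0.692 ± 0.171 kb (SE; limma adjusted p = 0.0126), and the groups did not overlap. In WT cells the window had 0.320 to 1.34 kb after UV and 0.650, 0.747 and 0.540 kb without. KRTAP13-3, a high-sulfur gene of the proximal cluster, had no peak in any irradiated ASH1L-/- library and 0.276, 0.540 and 0.489 kb without UV. It was covered in 5 of 18 libraries and reached the minimum of 3 only through the unirradiated ASH1L-/- libraries, so its difference of −0.435 ± 0.121 kb (SE) is given without its test. KRTAP26-1, also high-sulfur and proximal, had a peak in 1 of 6 irradiated ASH1L-/- libraries, of 0.459 kb, and 0.447, 0.344 and 0.815 kb without UV (−0.459 ± 0.137 kb, SE; limma adjusted p = 0.0268). KRTAP19-2 had 0, 0.821 and 0.775 kb at 1 h and 0.889, 0.647 and 0.771 kb at 3 h in ASH1L-/- cells, all below the 1.01 to 1.14 kb without UV (−0.446 ± 0.143 kb, SE; limma adjusted p = 0.0350).

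These calls depended on single libraries. Leaving out ASH1L-/- no UV replicate 1, 2 or 3 left 0 members higher, and leaving out ASH1L-/- 1 h replicate 2 or any ASH1L-/- 3 h replicate left 1. Leaving out ASH1L-/- no UV replicate 3 left 1 member lower, which was none of the 4 above, and KRTAP5-9 then had a limma adjusted p of 0.0536. Over the 9 such fits KRTAP5-9 kept its call in 8, KRTAP4-6 and KRTAP26-1 in 5 each, KRTAP19-2 in 4 and KRTAP10-11 in 3. With peaks of fold enrichment of at least 5 alone, 1 member was higher and 0 lower.

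KRTAP7-1, a high-glycine-tyrosine gene of the proximal cluster (start 30829759), was the only member outside the distal cluster among the 3 with the longest mean coverage (1.96 kb) and passed in neither test. It was covered over 1.91, 0.83 and 2.14 kb in ASH1L-/- cells without UV, 1.18, 2.2 and 2.35 kb at 1 h and 2.45, 1.54 and 1.23 kb at 3 h. In WT cells it had 2.28, 2.06 and 2.07 kb without UV, 2.08, 1.38 and 2.23 kb at 1 h and 2.46, 2.33 and 2.59 kb at 3 h. The irradiated and unirradiated libraries overlapped in each genotype, and its median fold enrichment was 5.42 in irradiated ASH1L-/- and 5.38 in irradiated WT cells. KRTAP2-3, a high-sulfur gene on chromosome 17, was irregular, with 0, 0 and 1.07 kb in ASH1L-/- cells without UV, 0.49, 1.04 and 1.32 kb at 1 h and 0, 0 and 1.05 kb at 3 h. Its WT libraries had 0.379, 0 and 1.22 kb without UV, 1.44, 0.786 and 1.76 kb at 1 h and 0.767, 1.14 and 2.48 kb at 3 h.

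Over all 33 proximal genes the median change was 0 kb in each comparison. After UV in ASH1L-/- cells 8 were positive, 13 negative and 12 at 0, and without UV 13 were higher and 8 lower in ASH1L-/- than in WT cells. Of the 34 chromosome 17 genes 27 had no peak in any library, and of the 6 on the chromosome 11 short arm 5 had none. In the proximal cluster the windows held on average more of the mark than the DNA between them, with overlapping spreads in most groups. Without UV, ASH1L-/- cells had 5.38% ± 0.448 inside against 3.06% ± 0.438 outside (SD, n = 3). Unirradiated WT cells had 4.03% ± 0.492 against 3.59% ± 1.44 (SD, n = 3), and replicate 2 went the other way, at 4.59% against 5.25%. After UV the shares were 3.79% ± 1.56 against 3.13% ± 1.39 in ASH1L-/- cells (SD, n = 6). Irradiated WT cells had 4.05% ± 0.828 against 3.24% ± 0.699 (SD, n = 6).

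In the distal cluster H3K4me3 was not concentrated at the start sites. In irradiated ASH1L-/- cells peaks covered 7.75% ± 2.97 of the bases inside the promoter windows and 7.93% ± 2.95 of those between them (SD, n = 6), and in irradiated WT cells 38.6% ± 5.48 inside and 39.5% ± 7.05 between (SD, n = 6). Without UV the shares were 7.46% inside and 7.65% between in ASH1L-/- cells, and 16.3% inside and 17.4% between in WT cells. A distal library held 21 to 48 peaks in irradiated and 26 to 37 in unirradiated ASH1L-/- cells, and 57 to 75 in irradiated and 47 to 64 in unirradiated WT cells. The widest peak was 1861 bp in irradiated and 1265 bp in unirradiated ASH1L-/- cells, and 7126 bp in irradiated and 3189 bp in unirradiated WT cells. Median widths ran from 258.5 to 428 bp in irradiated ASH1L-/- libraries and from 468 to 820 bp in irradiated WT libraries, so WT peaks after UV were both more numerous and wider.

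**Figure D3:**
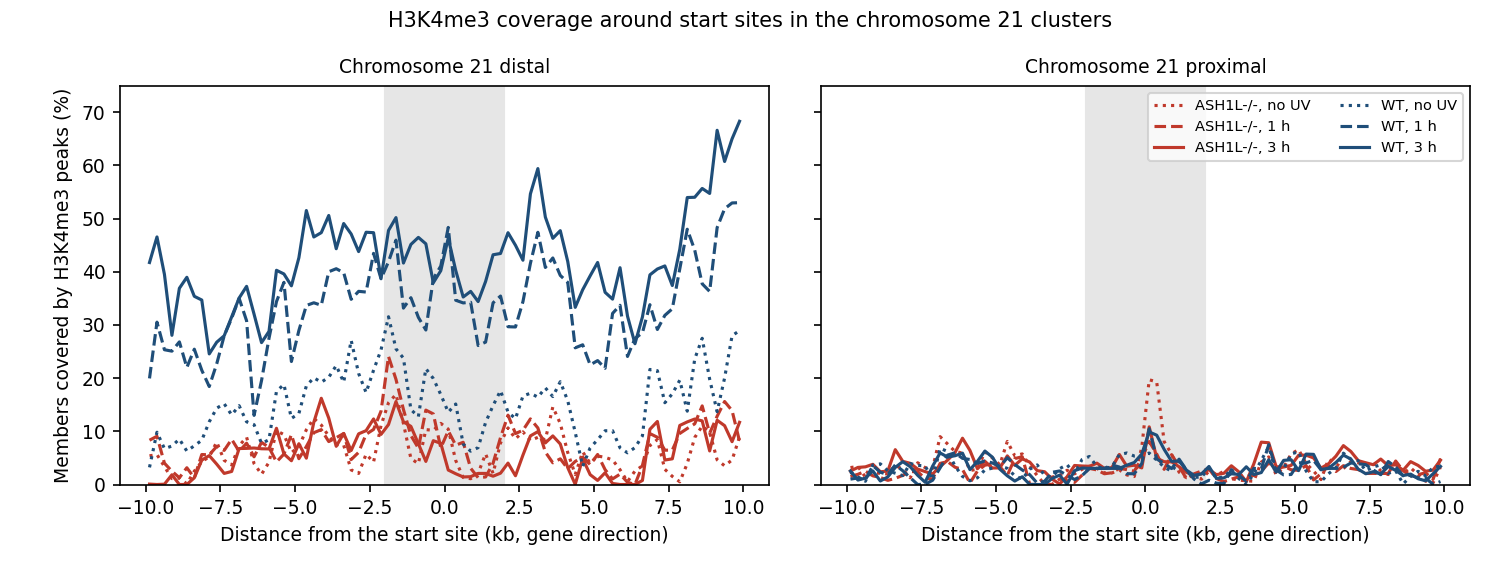
Percent of the distal (left) and proximal (right) chromosome 21 members covered by H3K4me3 peaks (y axis) against distance from the start site in kb (x axis, gene direction, bins of 250 bp), as the mean of 3 libraries per line. Grey marks the 4 kb window. The WT lines after UV are raised across the whole distal panel, in and beyond the window, while the proximal lines have a small summit just past the start site.

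TSPEAR, the gene that holds the distal cluster, had little H3K4me3 at its own start. Its window was covered in 7 of 18 libraries, over 0.079 ± 0.194 kb in irradiated (SD, n = 6) and 0 kb in unirradiated ASH1L-/- cells, and over 0.410 ± 0.291 kb in irradiated (SD, n = 6) and 0.0923 ± 0.160 kb in unirradiated WT cells (SD, n = 3). It passed neither for UV in ASH1L-/- cells (limma adjusted p = 0.708) nor at baseline (limma adjusted p = 0.837). The WT coverage fell off around the cluster. At 3 h the 100 kb bins either side of its centre had 3.58 and 7.84% of their bases under peaks in ASH1L-/- cells and 39.2 and 44.1% in WT cells, and the next bins outward had 14.8 and 21.7% in WT cells.

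XPC coverage served as a reference for the DNA of each cluster. XPC broad peaks covered 0.180, 0 and 0% of the distal cluster in unirradiated ASH1L-/- libraries, with 0, 0.744 and 0% at 1 h and 0, 2.85 and 0% at 3 h. In WT cells they covered 7.15, 6.63, 20.9 and 7.30% without UV, 3.84, 7.72 and 14.4% at 1 h and 6.77, 19.1 and 8.96% at 3 h. The cluster was listed at 0 in 6 of 9 ASH1L-/- libraries, and the highest ASH1L-/- value lay below the lowest WT value at all times. With shares set against the genome of the same library and 0.1 percentage point added to both, the mean log2 difference was −5.43 (exact permutation test within times, two-sided, p = 7.14e-05, the smallest it allows, adjusted p = 0.000357 over 5 clusters). The size of that difference depends on the added 0.1, since most ASH1L-/- values were 0, and is −7.72 with 0.01 and −2.98 with 1 percentage point added. Without the 2 shorter XPC lists it was −5.08 (exact permutation test, adjusted p = 0.00143). The short arm, long arm, chromosome 17 and proximal clusters had log2 differences of 0.04, −0.23, −0.05 and 0.42, at adjusted p of 0.895, 0.642, 0.886 and 0.406 in the exact permutation test. Of the 16 distal windows, 0 to 6 held an XPC peak in an ASH1L-/- library and 5 to 13 in a WT library.

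**Figure D4:**
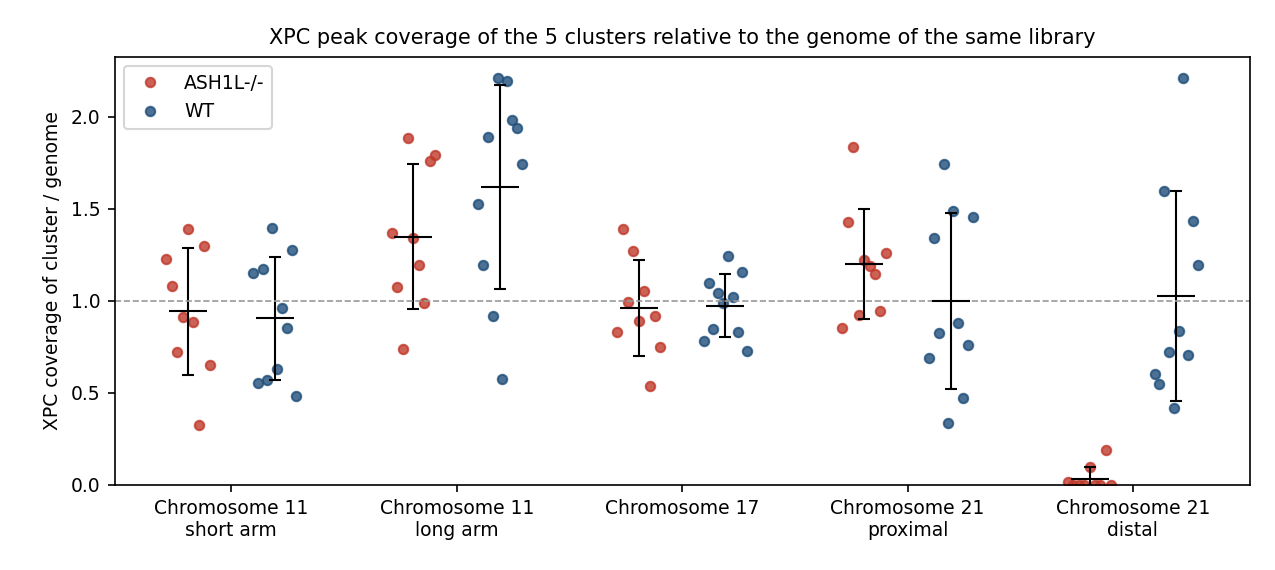
XPC peak coverage of each KRTAP cluster divided by that of the genome in the same library (y axis, from 0; the dashed line is 1) in 9 ASH1L-/- and 10 WT libraries of all times. Points are libraries, bars the mean ± SD. The distal chromosome 21 cluster lies near 0 in ASH1L-/- cells, with 6 of 9 libraries at 0, and the genotypes overlap in the other 4 clusters.

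The low XPC signal was wider than the cluster. In 1 Mb bins across the genome, the bin from 44 to 45 Mb of chromosome 21, which holds the cluster, differed by −4.75 on the log2 scale (limma adjusted p = 4.96e-08) and stood at percentile 0.0691 of 2894 bins, where 11.7% of bins were called lower and 8.78% higher. XPC peaks covered 0 to 2.74% of that bin in ASH1L-/- libraries (median 0.250%) and 5.15 to 23.6% in WT libraries (median 9.58%). The 5 bins from 42 Mb to the chromosome end all lay between −4.75 and −4.30, with limma adjusted p of 4.01e-08 to 1.17e-07. Bins from 38 to 42 Mb held little XPC in either genotype. Medians there were 0.132% in ASH1L-/- and 0.442% in WT libraries at 38 to 39 Mb, and 0.26% and 0.869% at 41 to 42 Mb. From 42 to 43 Mb they were 0.428% and 13.5%. The bins with the other clusters were not called, and the 2 proximal ones had 0.44 and 0.27 (limma adjusted p = 0.354 and 0.119). From 42 Mb on, the XPC of ASH1L-/- cells was low at every time, without UV included. A lower copy number of the DNA in the ASH1L-/- cells and lower XPC binding there thus cannot be told apart in these lists.

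**Figure D5:**
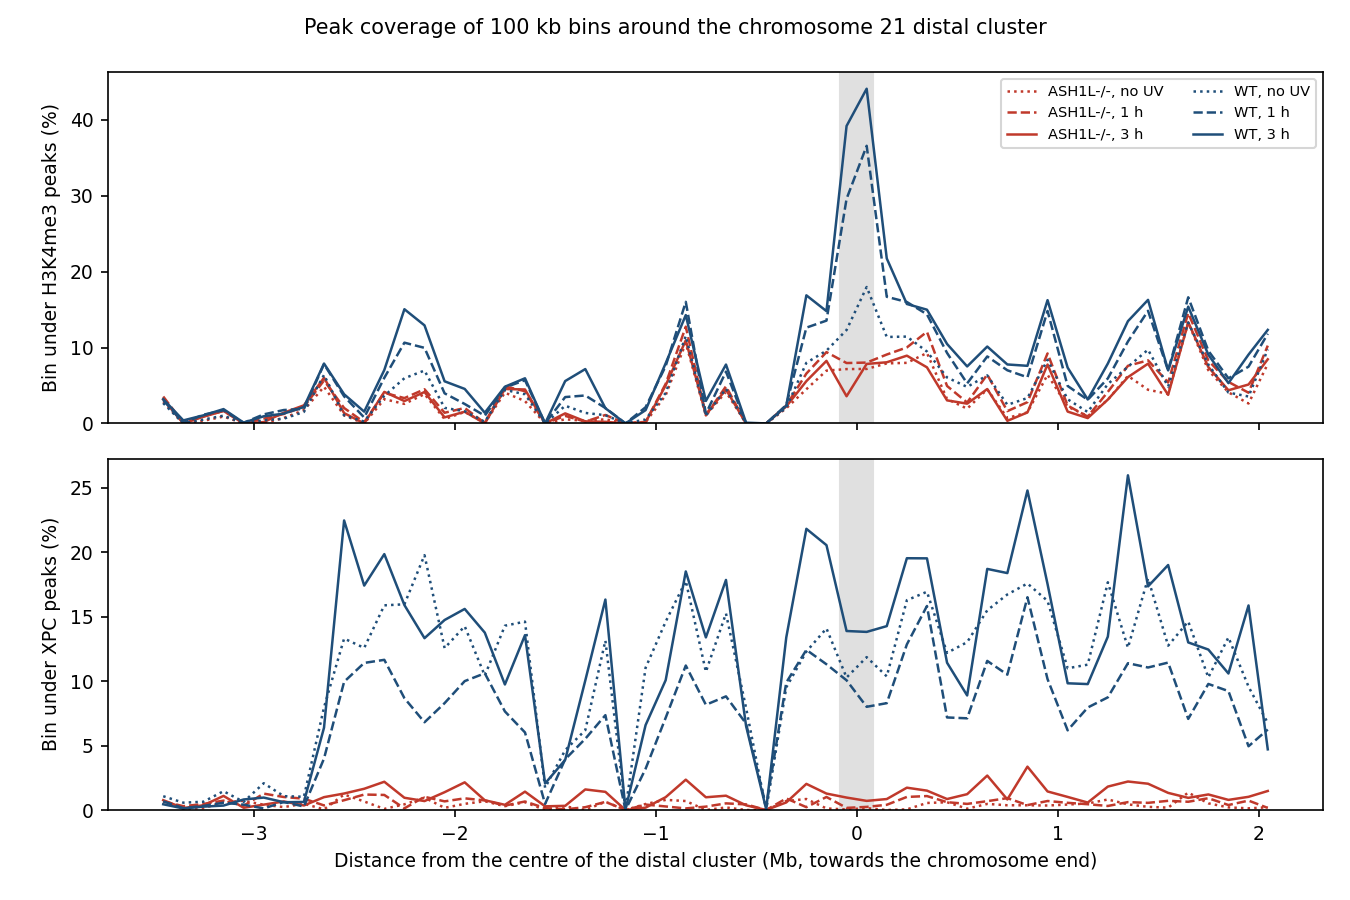
Percent of 100 kb bins under H3K4me3 peaks (top) and XPC peaks (bottom) against distance from the centre of the distal cluster in Mb (x axis, positive towards the chromosome end), as group means. Grey marks the cluster. H3K4me3 in WT cells at 3 h has its summit of 39.2 and 44.1% at the cluster, while XPC in ASH1L-/- cells is low over the whole segment.

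H3K4me3 at other promoters in the segment from 42 Mb to the chromosome end is given beside that low XPC signal. The 61 other promoters there summed to 97.6 ± 3.76 kb in irradiated (SD, n = 6) and 88.4 ± 1.80 kb in unirradiated ASH1L-/- cells (SD, n = 3), against 104 ± 2.62 kb in irradiated (SD, n = 6) and 92.2 ± 7.59 kb in unirradiated WT cells (SD, n = 3). Of 42 tested, 15 were higher and 0 lower after UV in ASH1L-/- cells, with a median change of 0.245 kb, and without UV 1 was higher and 4 lower in ASH1L-/- than in WT cells, with a median of −0.0863 kb. On the rest of chromosome 21, with 110 other promoters and 89 tested, 31 were higher and 1 lower after UV in ASH1L-/- cells. At baseline 1 was higher and 0 lower there. The shares of all promoters tested were 24% higher and 0.258% lower after UV, and 2.86% higher and 1.11% lower at baseline. The part of the segment's low XPC coverage in the KRTAP10 and KRTAP12 values was not tested.

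Sequence shared among paralogs limits single genes. Of all 100-base stretches in a window, the share found once in the genome had a median of 100% over the 94 windows and a lowest value of 70.0%, in KRTAP9-8 on chromosome 17. The distal windows had 90.7 to 100% (median 98.4%), and 12 of the 94 windows overlapped another member's window. Reads of low mapping quality had been removed, and the values of KRTAP9-8 and KRTAP9-2, at 78.5%, are uncertain.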

How the data were processed

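The series lists 61 samples, of which 37 have a peak list used here (18 H3K4me3, 19 XPC), and the 18 inputs and 6 XPC-/- samples entered only as controls. Per the submitters' processing notes and methods, 100-base single-end reads were trimmed (Trim Galore 0.6.5), aligned to hg38 without chromosome Y (BWA 0.7.17-r1188), filtered for mapping quality, duplicates and blacklisted regions (bedtools 2.29.2, Picard, SAMtools 1.7), and peaks were called per library by the authors (MACS2 2.2.7.1), narrow for H3K4me3 and broad for XPC. The deposited lists give peak positions in bases (other), the deposited fold enrichment over control (a ratio), and the deposited −log10 p and −log10 q. They hold no counts, so no counting error could be given for a value; the reads of each library are stated by the study and were not used here.

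Start sites came from GENCODE 44, from the MANE transcript for 19016 genes and the Ensembl canonical one for 954. Covered lengths were computed with Python 3.11.15 and numpy 2.4.6, and start regions came from RefSeq tables. All 18 H3K4me3 libraries entered 1 fit of 6 group means in limma 3.58.1 (R 4.3.3, trend and robust) with Benjamini-Hochberg adjustment over the 14745 promoters tested and a threshold of 0.05, and both times after UV were averaged. XPC bins were fitted likewise. Cluster shares were tested by exact permutation, 6 against 3 libraries for H3K4me3 (smallest p 0.0119) and within times for XPC (smallest p 7.14e-05). An exact test of 3 against 3 cannot go below 0.1. The offset of 0.1 percentage point was added because some XPC shares were 0, and was not part of the planned test. The steps were tested on simulated data.

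The members and lists were chosen with earlier results of these data known. Genes named with values were KRTAP12-3, the 12 members of largest mean coverage and each member past a tested threshold, and up to 4 per list. The labels name the replicates of a group as biological. P-values measure the spread between them. Alternatives were a narrower window, stricter peaks, scaled coverage, other filters, wider spans, a replicate block and leaving out each library.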

Additional observations from a re-analysis of the deposited data

Results flagged for a closer look

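The 4 XPC libraries of WT cells without UV were checked over the 5 clusters for a library far from the others, and 1 stood apart. XPC peaks covered 20.9% of the distal chromosome 21 cluster in WT no UV replicate 3, against 7.15, 6.63 and 7.30% in the other 3 WT libraries without UV. Without that library the log2 difference between ASH1L-/- and WT cells was −5.32 (exact permutation test, adjusted p = 0.00125). Chance alone gives such a library in about 1 of 20 such groups. With 5 groups checked, a flag by chance in at least 1 of them is more likely than that.

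Several members had fitted changes after UV of opposite sign in the 2 genotypes, and KRTAP10-9 and KRTAP19-2 are described here. Others include KRTAP5-9, at −0.692 kb in ASH1L-/- and 0.377 kb in WT cells, a difference of −1.07 kb. KRTAP10-5 was at −0.33 kb in ASH1L-/- and 1.27 kb in WT cells. For KRTAP10-9 the change was −0.459 ± 0.288 kb in ASH1L-/- cells (SE; limma adjusted p = 0.232, not called) and 1.63 kb in WT cells, a difference of −2.09 kb. For KRTAP19-2 it was −0.446 kb in ASH1L-/- cells and 0.440 kb in WT cells, a difference of −0.886 kb. In both genes every irradiated ASH1L-/- library lay below the mean of its unirradiated libraries and every irradiated WT library above that of its own. The difference was not tested, since the WT response had chosen the family.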

How the results depend on the processing

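The lists hold called peaks and no counts, so short coverage depends on which weak peaks were called. In ASH1L-/- cells after UV, members higher and lower numbered 2 and 4, with KRTAP13-3 among the 4. The higher count was 0 with 1 kb either side of the start, and 1 with fold enrichment of at least 5, with −log10 q of at least 1.3 or with coverage scaled to an equal total; the lower count was 0 with fold enrichment of at least 5. Leaving out a library gave 0 to 2 higher and 1 to 4 lower. At baseline (1 higher, 2 lower) the lower count was 0 at 1 kb, and with fold enrichment of at least 5 both counts were 0. With −log10 q of at least 1.3 they were 2 and 1, with scaled coverage 3 and 4, and with windows covered in at least 1 library 1 was lower. Leaving out a library gave 0 to 1 for each.

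Scaling moved the median change of all promoters by −0.818 kb for UV in WT cells, −0.314 kb for UV in ASH1L-/- cells and −0.0726 kb at baseline, and turned its sign in each. The WT median over the 16 distal genes was 0.455 kb at 1 kb, 0.242 kb with fold enrichment of at least 5 and 0.340 kb with scaling (0.866 to 1.11 kb without 1 library). KRTAP12-3 in WT cells had 1.23 kb at 1 kb and 0.636 kb with fold enrichment of at least 5 (1.74 to 2.26 kb without 1 library). The WT rise of distal coverage was 9.07 points with fold enrichment of at least 5 and 0.72 as a log2 ratio to the genome (a setting chosen after seeing the data; 21 to 24.5 points without 1 library).

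The uncalled cluster changes after UV in ASH1L-/- cells turned direction in places, and 0 of 65 alternatives passed. As in the main test, a cluster that changed alone could not pass in them, so this count does not show that the clusters were unchanged. The long arm was at 0.250 with 100 kb added either side and 0.618 with fold enrichment of at least 5, where the proximal cluster was at 0.215 and the distal at −0.102; the distal cluster was at −0.16 as a log2 ratio. Without 1 library the proximal ran from −0.650 to 0.209 and the distal from −0.682 to 1.74.

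The distal XPC share passed in all 26 alternatives (−5.86 to −5.15 without 1 library) and the distal bin in all 3. Added offsets of 0.01 and 1 percentage point, and leaving out both shorter lists, were chosen after seeing the data. Directions of uncalled clusters turned. With −log10 p of at least 2 the bins were at 0.25 (long arm) and 0.16 (chromosome 17), and the shares at −0.19 (short arm), 0.12 (long arm) and 0.11 (chromosome 17). With 500 kb added the short arm was at −0.26, and without both shorter lists chromosome 17 was at 0.00142. Without 1 library the short arm ran from −0.124 to 0.202 and chromosome 17 from −0.121 to 0.0147.

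With a replicate block, 3 members were higher and 3 lower after UV in ASH1L-/- cells (KRTAP19-2 lost at limma adjusted p = 0.0503), and 1 and 2 at baseline. The distal bin was at −4.82 (limma adjusted p = 7.59e-07), the distal XPC share at −5.45 (exact permutation, adjusted p = 0.0195), the short arm at −0.0151, and the distal H3K4me3 change had an adjusted p of 0.963 in the exact permutation test. Deviations of libraries with the same number and genotype correlated at −0.111 to 0.294, over 0.1 in 9 of 18 pairs, against 3 of 90 pairs of different numbers. Libraries of the same number and different genotype were over 0.1 in 9 of 27 pairs. Not every pair passed 0.1, so the numbers were not taken as a pairing, and the main tests leave any such shared part out.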
